A study of Rattus norvegicus with 5 samples.

Results

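Cxcl13, Ccl19, Glycam1 and Ubd are 4 genes of organised lymphoid tissue, and they were followed through the deposited comparisons of rat lung libraries. They were picked by gene symbol, with case ignored, and all 4 were found among the 1800 symbols that stood in at least 1 of 9 distinct tables of differentially expressed genes. The 4 genes were chosen with earlier results of these data known. Neither their presence there nor their directions are therefore a test. Lung RNA of the outbred Sprague Dawley rat was sequenced, with 1 library in each of 5 groups. The reference was a normoxic male that was not screened for gasping. The other 4 groups were screened by how soon a rat first gasped under hypobaric hypoxia and, a week later, spent 1 h at a simulated altitude of 9144 m. The susceptible male gasped before 5 min, the normal (moderate) male between 15 and 20 min, the tolerant male after more than 45 min and the tolerant female after more than 1 h. Earlier screening and the exposure itself cannot be told apart in comparisons with the reference, and neither can sex and tolerance in comparisons of the tolerant female with a male. No age is given here, nor is it stated whether a library held 1 animal or a pool. With 1 library per group no difference has a replicate check. All folds and p-values below compare libraries, not conditions.

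Lymph nodes and the lymphoid tissue along the bronchi of the rat lung are organised by chemokines that stromal cells lay down. Cxcl13 is the ligand of Cxcr5 and draws B cells into follicles. Ccl19 is a ligand of Ccr7 and draws T cells and mature dendritic cells into the zone around the follicles. Glycam1 encodes a mucin-like protein of high endothelial venules, the vessels through which lymphocytes enter lymphoid tissue. It carries sugars that lymphocytes bind as they slow in these vessels, and in rodents it is also a milk protein. Ubd encodes FAT10, a ubiquitin-like modifier that is induced by interferon gamma and tumour necrosis factor in human cells and is abundant in lymphoid tissue. In the mouse, lymphotoxin signalling through NF-kB drives Cxcl13 and Ccl19 in lymphoid stroma.

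Because the 4 genes were lower and higher in the same libraries, their upstream sequences are shown. These are the 250 bases before the RefSeq gene start on the rat assembly GRCr8, all on the minus strand. Capitals mark matches on either strand to TATAAA, the core of the TATA box, to a loose form of the NF-kB motif (GGG, then 5 bases of any kind, then CC), or to the core of the interferon-response element (GAAA, 2 bases of any kind, GAAA).
Cxcl13 (chr14:13917921-13918170): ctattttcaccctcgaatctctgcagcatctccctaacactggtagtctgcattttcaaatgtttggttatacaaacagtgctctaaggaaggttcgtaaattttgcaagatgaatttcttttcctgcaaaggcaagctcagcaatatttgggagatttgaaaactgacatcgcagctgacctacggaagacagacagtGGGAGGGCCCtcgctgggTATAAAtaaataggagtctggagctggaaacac
Ccl19 (chr5:61761165-61761414): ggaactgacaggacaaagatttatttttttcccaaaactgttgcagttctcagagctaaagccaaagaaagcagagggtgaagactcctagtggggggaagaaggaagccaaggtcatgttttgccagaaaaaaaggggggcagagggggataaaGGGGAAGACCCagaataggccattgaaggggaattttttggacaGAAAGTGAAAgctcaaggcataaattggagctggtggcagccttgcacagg
Glycam1 (chr7:136561300-136561549): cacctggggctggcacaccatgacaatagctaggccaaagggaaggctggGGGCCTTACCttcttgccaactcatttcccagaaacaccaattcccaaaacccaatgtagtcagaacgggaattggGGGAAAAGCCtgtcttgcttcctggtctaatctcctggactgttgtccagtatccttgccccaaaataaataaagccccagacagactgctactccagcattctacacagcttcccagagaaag
Ubd (chr20:1392686-1392935): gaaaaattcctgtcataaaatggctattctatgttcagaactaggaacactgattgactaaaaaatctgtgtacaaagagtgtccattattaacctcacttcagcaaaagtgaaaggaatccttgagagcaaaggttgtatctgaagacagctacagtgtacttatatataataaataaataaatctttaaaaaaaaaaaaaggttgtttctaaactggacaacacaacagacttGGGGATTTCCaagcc

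The loose NF-kB motif was found in the window of each of the 4 genes, and in 47.5% of 21851 windows of protein-coding genes. A stricter form with TT as the middle bases (GGG, 2 bases of any kind, TT, 1 base of any kind, CC), whose matches are a subset of the loose ones, was found for Ccl19, Glycam1 and Ubd and in 4.43% of all windows. The Ubd match GGGGATTTCC spans bases 15 to 6 before the start. TATAAA stood only in the Cxcl13 window, at bases 33 to 28 before the start, against 12.1% of all windows. The interferon-response core stood only in the Ccl19 window, at bases 51 to 42, against 3.27% of all windows. All 4 windows held fewer CpG dinucleotides than the median of 8, with 5 for Cxcl13, 1 for Glycam1 and 0 for Ccl19 and Ubd. GC content was 32.8% for Ubd, 43.6% for Cxcl13, 47.2% for Ccl19 and 50.4% for Glycam1, beside a median of 54.0% over all windows. The motif letters were chosen after the sequences were seen, so the shares beside them are not a test. Whether the motifs bear on the levels of the 4 genes was not tested. A match describes letters and is not evidence of binding.

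To be listed, a gene needed a fold of 2 or more in either direction with an FDR-corrected p under 0.05, and the tables hold no value per library, so the lung identity of the samples and their depth could not be checked. From 134 to 1036 symbols were listed per table, with 590 to 1036 where the normal male was compared and 134 to 262 elsewhere. The 4 genes gave 16 listings over the 9 tables. For another 16 pairs of a gene and a library comparison, a fold was derived by chaining listed folds, and 8 of the 40 pairs had no value. A derived fold carries no p-value. Where the authors compared the pair, a derived fold of 2 or more had, by the listing rule, missed their p limit.

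Relative to normoxia, the authors' deposited table put the 4 genes 14.4- to 97.1-fold lower in the susceptible male. In the normal male they stood at or above the normoxic level, with listed or derived values from 1.08-fold lower to 2.40-fold higher. The tolerant male lay between these libraries and below normoxia for each gene at 5.63- to 44.8-fold less, of which only the value of Ccl19 was listed. Where the tolerant female had a value, for Cxcl13 and Glycam1, it was lower than normoxia and higher than in both the susceptible and the tolerant male. For bulk tissue, fewer cells of a type and less RNA per cell cannot be told apart.

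**Figure D1:**
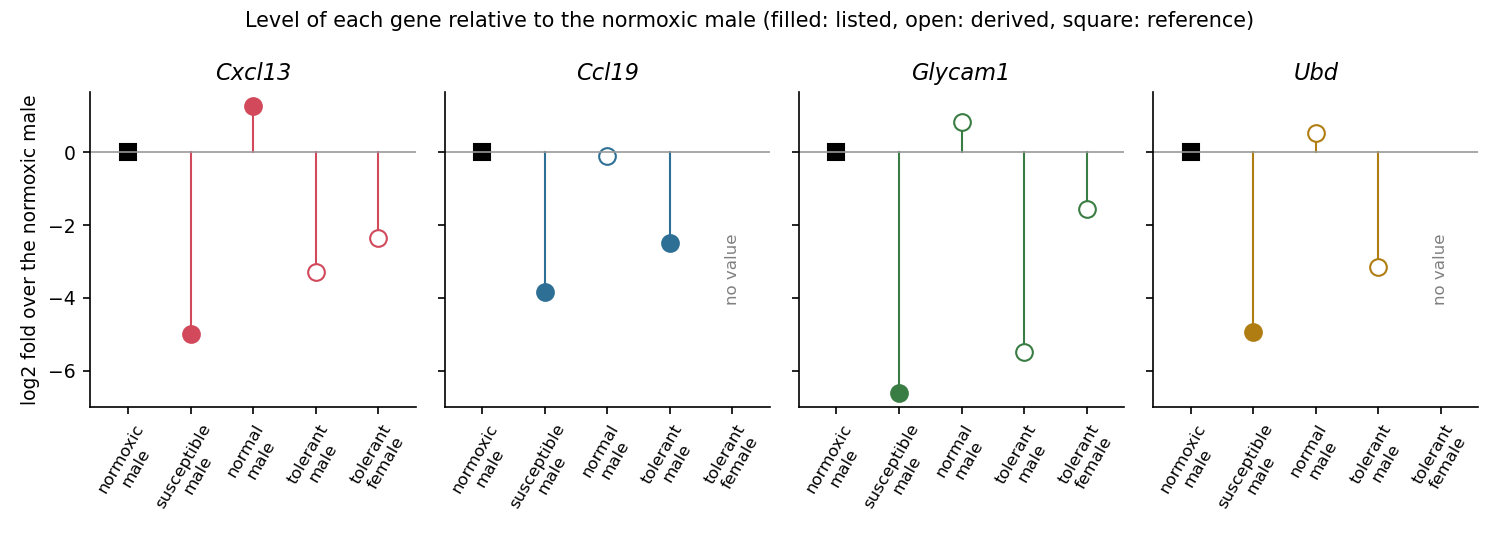
Level of each gene in the 5 libraries as log2 fold over the normoxic male, 1 library per point. Filled points are listed in the authors' tables, open points were derived from listed folds and the square is the reference. The susceptible male is lowest for each gene, from -3.85 for Ccl19 to -6.60 for Glycam1, and Ccl19 and Ubd have no value in the tolerant female.

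Cxcl13, the B cell attractant (chromosome 14, 15126332 to 15131376), had a value in all 5 libraries. It was 32.0-fold lower in the susceptible male than in normoxia (FDR-corrected p = 0.0057) and 2.40-fold higher in the normal male (p = 0.033) in the authors' deposited tables. No other gene of the 4 was listed in opposite directions against the same reference. The normal male was 77.0-fold above the susceptible male in the authors' deposited table (p = 1.03e-08). Against the normal male, Cxcl13 was 23.6-fold lower in the tolerant male (p = 7.34e-08) and 12.4-fold lower in the tolerant female (p = 8.03e-07) in the authors' deposited tables. Through the normal male, derived folds put the tolerant male 9.82-fold and the tolerant female 5.15-fold below normoxia. The order from high to low was therefore normal male, normoxic male, tolerant female, tolerant male, susceptible male. The derived step from the tolerant male to the tolerant female was 1.91-fold and that from the susceptible to the tolerant male 3.26-fold, with no spread to judge either by.

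Ccl19, the T cell and dendritic cell attractant (chromosome 5, 59221738 to 59223735), changed least of the 4. It was 14.4-fold lower in the susceptible male (p = 6.97e-05) and 5.63-fold lower in the tolerant male (p = 0.0021) than in normoxia in the authors' deposited tables. Ccl19 was the only gene of the 4 that the table of the tolerant male against normoxia listed. The normal male was 13.3-fold above the susceptible male (p = 7.22e-05) and the tolerant male 5.22-fold below the normal male (p = 0.00292) in the authors' deposited tables. The derived fold between the normal and the normoxic male was 1.08, so these libraries stood next to each other at the top. The tolerant male followed, at a derived 2.55-fold above the susceptible male. No table gave a value for the tolerant female.

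Glycam1, the mucin of high endothelial venules (chromosome 7, 142455642 to 142457950), had the widest range, with 172-fold between the highest and the lowest library. It was 97.1-fold lower in the susceptible male than in normoxia (p = 0.000873) in the authors' deposited table. The normal male was 172-fold above the susceptible male in the authors' deposited table (p = 1.25e-07). Set against the normal male, Glycam1 was 79.2-fold lower in the tolerant male (p = 2.32e-07) and 5.17-fold lower in the tolerant female (p = 0.000532) in the authors' deposited tables. By listed and derived values, the normal male, normoxic male and tolerant female stood above the tolerant and susceptible male. Among the upper libraries, the tolerant female was itself listed below the normal male. The folds of the tolerant male below normoxia, and of the tolerant female above the tolerant and susceptible male, were derived only. Derived folds put the normal male 1.77-fold above normoxia, the tolerant female 2.92-fold below it and the tolerant male 44.8-fold below it. The tolerant female was a derived 15.3-fold above the tolerant male and 33.2-fold above the susceptible male. Of the 4 genes, Glycam1 was the one in which the tolerant male lay nearest the susceptible male, at a derived 2.17-fold.

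Ubd, the ubiquitin-like modifier (chromosome 20, 1475944 to 1477895), was listed in 3 tables. It was 30.5-fold lower in the susceptible male than in normoxia in the authors' deposited table, with a p of 0.0449 that was close to the authors' limit. The normal male was 44.3-fold above the susceptible male (p = 0.00102) and the tolerant male 12.8-fold below the normal male (p = 0.00474) in the authors' deposited tables. Derived folds put the normal male 1.45-fold above and the tolerant male 8.84-fold below normoxia, and the tolerant male 3.45-fold above the susceptible male. The order of these 4 libraries was the same as for Cxcl13 and Glycam1. No table gave a value for Ubd in the tolerant female.

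Counted by table, the 4 genes were all listed lower in the susceptible male against normoxia, where 59.9% of all listed genes were lower and 40.1% higher. Cxcl13 alone was listed in the normal male against normoxia, and was higher, as were 48.2% of the listed genes there, with 51.8% lower. Ccl19 alone was listed in the tolerant male against normoxia, and was lower, as were 53.1% of the listed genes (46.9% were higher). None was listed in the tolerant female against normoxia, where 46.2% of listed genes were lower and 53.8% higher. Between exposed libraries, all 4 were higher in the normal than in the susceptible male (61% of listed genes were higher and 39% lower) and lower in the tolerant than in the normal male (63.3% were lower and 36.7% higher). The tolerant female was lower than the normal male for Cxcl13 and Glycam1, as for 64.6% of the listed genes, with 35.4% higher. None was listed when either tolerant library was compared with the susceptible male, where 54.5% of listed genes were higher in the tolerant male and 65.7% in the tolerant female. These comparisons share libraries, so that the normal male enters all listings between exposed animals and the susceptible male 8 of the 16 listings.

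In the table of the susceptible male against normoxia, the 4 genes stood among the larger folds and not among the smaller p-values. Of 154 genes that were lower, Glycam1 had the fold of rank 2, Cxcl13 of rank 5, Ubd of rank 6 and Ccl19 of rank 19 in the authors' deposited table. By p-value their ranks among the same genes were 90, 115, 149 and 65. Against the susceptible male, the normal male's fold for Glycam1 had rank 9 of 630 finite folds on the higher side, that for Cxcl13 rank 36, that for Ubd rank 72 and that for Ccl19 rank 168, in the authors' deposited table. The p-value ranks there were, in the same order, 179, 155, 342 and 274 of 632. The 2.40-fold of Cxcl13 in the normal male over normoxia was by contrast small, at rank 332 of 418 finite folds in the authors' deposited table.

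**Figure D2:**
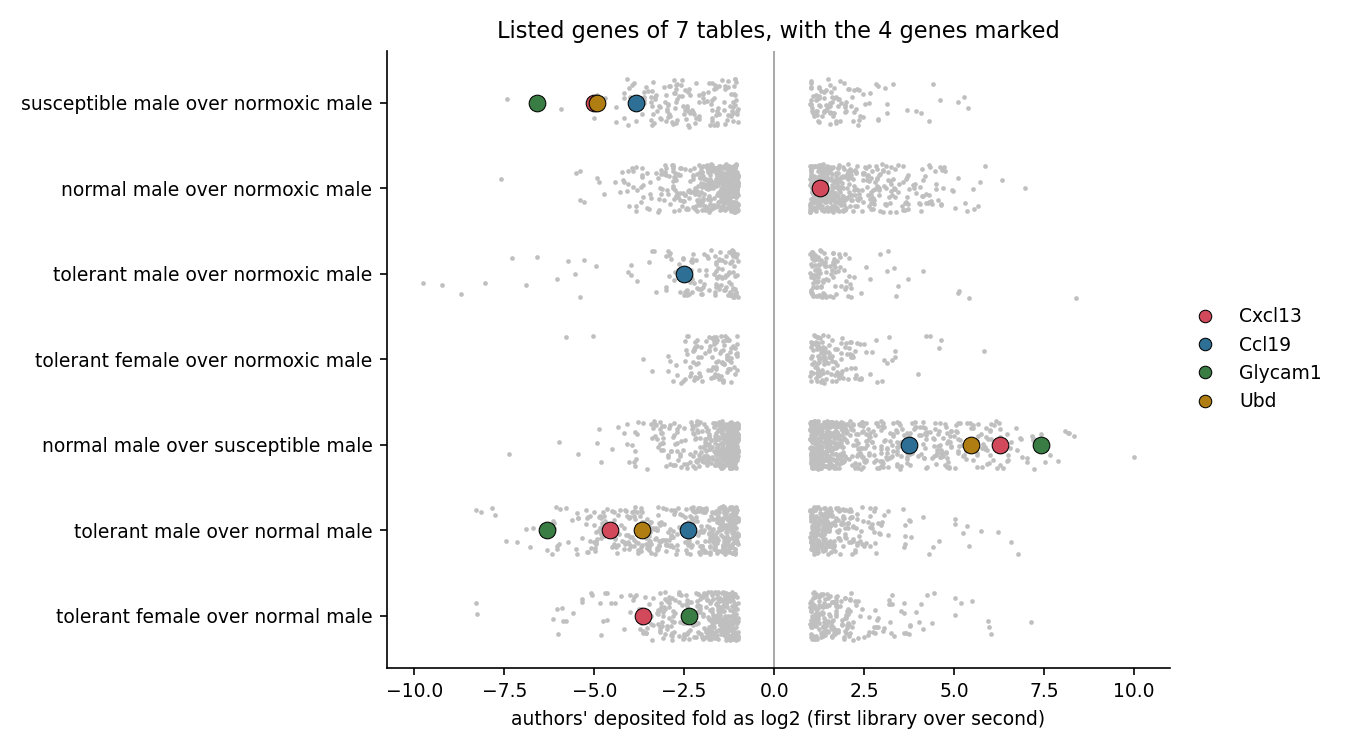
Each grey point is a listed gene with a finite fold in 1 of 7 tables, placed by the log2 of the authors' fold (first library over second; the vertical spread has no meaning), and coloured points are the 4 genes. In the susceptible male over the normoxic male the 4 genes lie at -3.85 to -6.60, and in the normal over the susceptible male at 3.74 to 7.42.

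**Figure D3:**
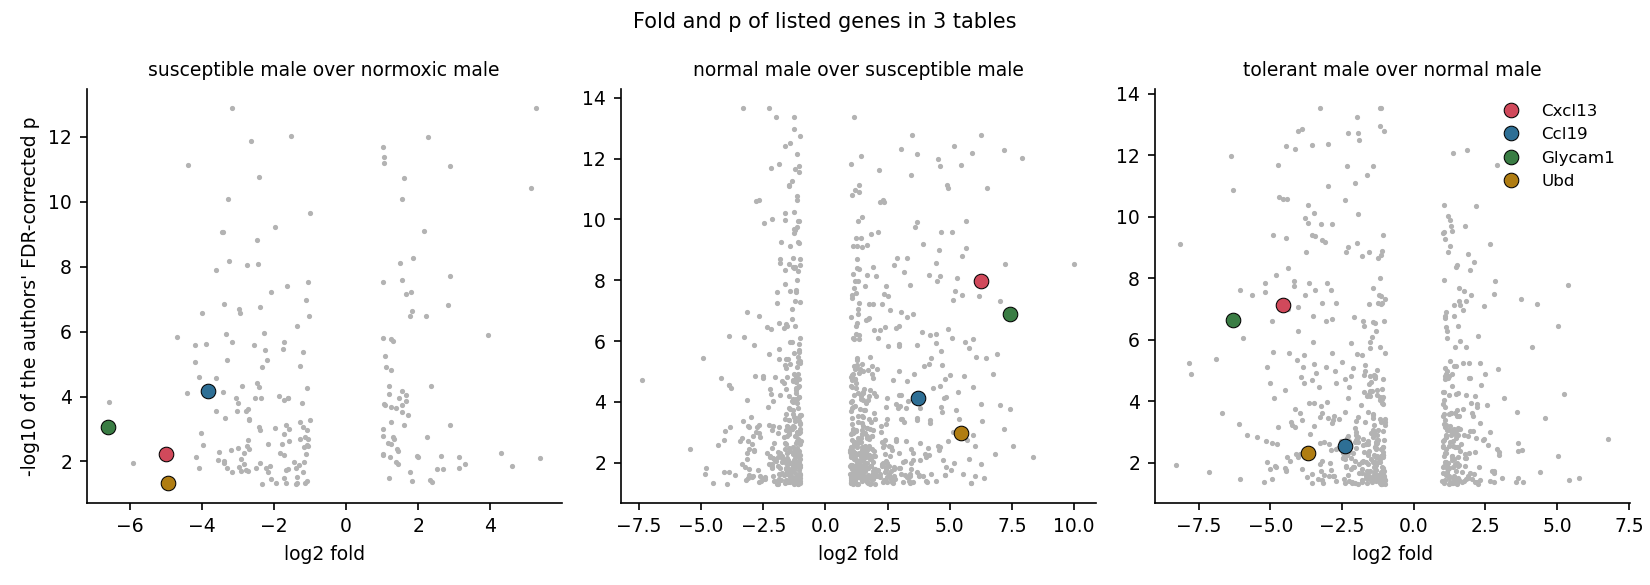
Log2 fold against -log10 of the authors' FDR-corrected p in 3 tables, with the 4 genes coloured and other listed genes grey; infinite folds and the 44, 146 and 114 genes whose p is stored as 0 are not drawn. In the susceptible over the normoxic male, Glycam1 lies at the far left at a p of 0.000873, below many genes with smaller folds.

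Absence from a table did not mean a small fold. By the listing rule, a fold of 2 or more that was not listed had missed the authors' p limit of 0.05. Glycam1 was a derived 44.8-fold lower in the tolerant male than in normoxia and yet was not listed there. In that comparison 15 genes were at least 40-fold lower by a listed or derived value, and the table held 11 of them. Of 34 genes at least 8-fold lower, among them Cxcl13 and Ubd by derived values, it held 22. In the tolerant female over the susceptible male, where Glycam1 was a derived 33.2-fold higher, 71 of 96 genes at least 8-fold higher were listed.

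On a list of 26 homing chemokines, receptors and co-factors, Cxcl13 and Ccl19 included, 8 symbols were listed in some table. Beside this and the later lists, 5.16% of the 23154 protein-coding genes of GRCr8 were listed in some table. The lists were chosen with earlier results known, so no such share is a test. In the susceptible male against normoxia 3 homing genes were listed, all lower, as were 59.9% of all listed genes in the authors' deposited table. The third besides Cxcl13 and Ccl19 was Cxcr5, the receptor for Cxcl13, for which the authors' deposited table gave 9.90-fold lower (p = 0.0159). Cxcr5 was 8.26-fold higher in the normal than in the susceptible male in the authors' deposited table (p = 0.024), and a derived 1.20-fold below normoxia. Ccr7, the receptor for Ccl19, was not listed in any of the 9 tables, and neither was any Ccl21 symbol, its other ligand. Gpr183, an oxysterol receptor that positions B cells, was 18.9-fold higher in the normal than in the susceptible male (p = 0.0235) and 11.8-fold lower in the tolerant than in the normal male (p = 0.0466) in the authors' deposited tables. Spns2, a transporter that exports sphingosine 1-phosphate, ran otherwise: the authors' deposited tables gave it relative to normoxia as 4.76-fold lower in the normal male, 2.12-fold lower in the tolerant male and 2.18-fold lower in the tolerant female. S1pr2, a receptor for sphingosine 1-phosphate, was 2.23-, 2.18- and 2.22-fold lower in the same libraries in the authors' deposited tables. Cxcr7, a scavenging receptor for Cxcl12, was 2.15-fold higher in the tolerant male and 2.28-fold higher in the tolerant female than in normoxia in the authors' deposited tables. Cxcl12 itself was 4.39-fold lower in the normal male and 4.88-fold lower in the tolerant male in the authors' deposited tables, but its rows did not chain between tables and no derived value is given. Of 6 homing genes listed for the normal over the susceptible male, 4 were higher, as were 61% of all listed genes there. The others were lower in the authors' deposited table, Cxcl12 at 4.59-fold and Spns2 at 3.66-fold.

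Of 21 high endothelial venule and lymphocyte adhesion genes, 5 were listed somewhere. In the susceptible male against normoxia Glycam1 was the only one. The enzymes Chst4 and Fut7, which build the sugars that lymphocytes bind there, and the venule adhesion molecule Madcam1 were not listed in any table. Chst2, a sulfotransferase of the same pathway, was 3.45-fold lower and the endothelial sialomucin Emcn 2.02-fold lower in the normal male than in normoxia in the authors' deposited table, while Glycam1 was a derived 1.77-fold higher.

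Of 22 lymphotoxin and lymphoid organiser genes, 4 were listed somewhere, and Lta, Ltb, Ltbr, Relb and Nfkb2 were not. Tnfrsf13c, the BAFF receptor of B cells, was 35.0-fold higher in the normal than in the susceptible male (p = 0.000943) and the tolerant female 13.5-fold below the normal male (p = 0.00425) in the authors' deposited tables. Tnfrsf13b, another receptor of that system, was 4.68-fold lower in the susceptible male than in normoxia in the authors' deposited table (p = 0.0154). Of 21 genes of the Ubd pathway and antigen processing, 3 were listed. Besides Ubd, Irf1, an interferon-induced transcription factor, was 2.43-fold lower in the susceptible male than in normoxia (p = 1.17e-05) and 2.42-fold higher in the normal than in the susceptible male (p = 4.33e-06) in the authors' deposited tables. Psme2, a proteasome activator subunit, was 7.09-fold higher in the normal than in the susceptible male in the authors' deposited table (p = 0.000118). Uba6, the enzyme that activates FAT10, was not listed in any table.

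Of 31 other chemokines 6 were listed somewhere, and none was listed in the susceptible male against normoxia. The normal male's table listed 4, each of them higher than in normoxia. The median log2 fold of these was 1.97 in the authors' deposited table, where 48.2% of listed genes were higher. They were the neutrophil attractant Cxcl1 at 5.16-fold, Ccl9 at 4.79-fold, the interferon-induced Cxcl9 at 3.22-fold and Ccl6 at 2.65-fold in the authors' deposited table. Cxcl9 was also 8.97-fold higher in the normal than in the susceptible male and 5.00-fold lower in the tolerant than in the normal male in the authors' deposited tables. Its derived level in the susceptible male was 2.79-fold below normoxia, so that it was low there without being listed. Ccl22, a T cell attractant, was 3.44-fold higher in the normal than in the susceptible male in the authors' deposited table. Against the normal male, the authors' deposited tables gave Ccl22 as 2.01-fold lower in the tolerant male and 2.12-fold lower in the female. Between the males, Cxcl9 and Ccl22 had the directions of the 4 lymphoid genes in these comparisons. These were also the directions of 61% of the genes listed for the normal over the susceptible male. They were those of 63.3% for the tolerant over the normal male. In the tolerant female Cxcl9 was a derived 2.77-fold above normoxia, while Cxcl13 and Glycam1 were below it.

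B cell markers were low in the same library as the 4 genes, and their part in the low values was not tested. Of 23 B cell symbols 9 were listed in the susceptible male against normoxia, all lower, from 3.16-fold for Faim3 to 18.2-fold for Cr2, the complement receptor of B cells and follicular dendritic cells, in the authors' deposited table. Their median log2 fold was -2.56, and 59.9% of all listed genes were lower there. In the tolerant female 8 were listed, all lower, with a median of -2.44 in the authors' deposited table, where 46.2% of listed genes were lower. In the tolerant male 3 were listed, all lower, as were 53.1% of the listed genes there. In the normal male the authors' deposited table listed 1 marker, Cd22, with a value 2.91-fold below normoxia. For the B cell gene Ms4a1 the tolerant libraries were ordered otherwise than for Glycam1. The authors' deposited table gave Ms4a1 as 7.37-fold lower in the tolerant female, and it was a derived 1.35-fold lower in the tolerant male, against a derived 2.92- and 44.8-fold for Glycam1.

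Plasma cell and immunoglobulin genes differed from the B cell markers in the libraries where they were listed. Of 19 plasma cell and immunoglobulin symbols 5 were listed in the susceptible male and 3 in the tolerant male against normoxia, all lower, and none in the normal male or the tolerant female. The medians were -2.57 and -1.94 in the authors' deposited tables, where 59.9% and 53.1% of listed genes were lower. Igha, the heavy chain of immunoglobulin A, was 5.96-fold lower in the susceptible male and 3.83-fold lower in the tolerant male in the authors' deposited tables, with derived values of 1.67-fold higher in the normal male and 1.01-fold lower in the tolerant female. Igj and Irf4 were also lower in the susceptible than in the tolerant male by listed or derived values. Igh-1a went the other way in the authors' deposited tables, at 10.7-fold below normoxia in the susceptible male and 14.2-fold in the tolerant male. Immunoglobulin genes have near-identical copies, and no source used here says how reads were shared between them. Of 30 T cell symbols none was listed in the susceptible male against normoxia, and Cd3d, Cd3e, Cd4 and Cd8a were not listed in any table. Zap70, a kinase of T cell receptor signalling, was 3.98-fold higher in the normal than in the susceptible male in the authors' deposited table. Of 18 dendritic cell symbols 1 was listed in the susceptible male against normoxia, and for this gene, Ciita, the regulator of class II genes, the authors' deposited table gave 3.33-fold lower. Follicular dendritic and reticular stromal markers were represented by Cr2 alone of 17 symbols. Of 10 milk and mammary symbols, Glycam1 alone was listed, and the caseins Csn2 and Csn3 were not listed in any table.

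**Figure D4:**
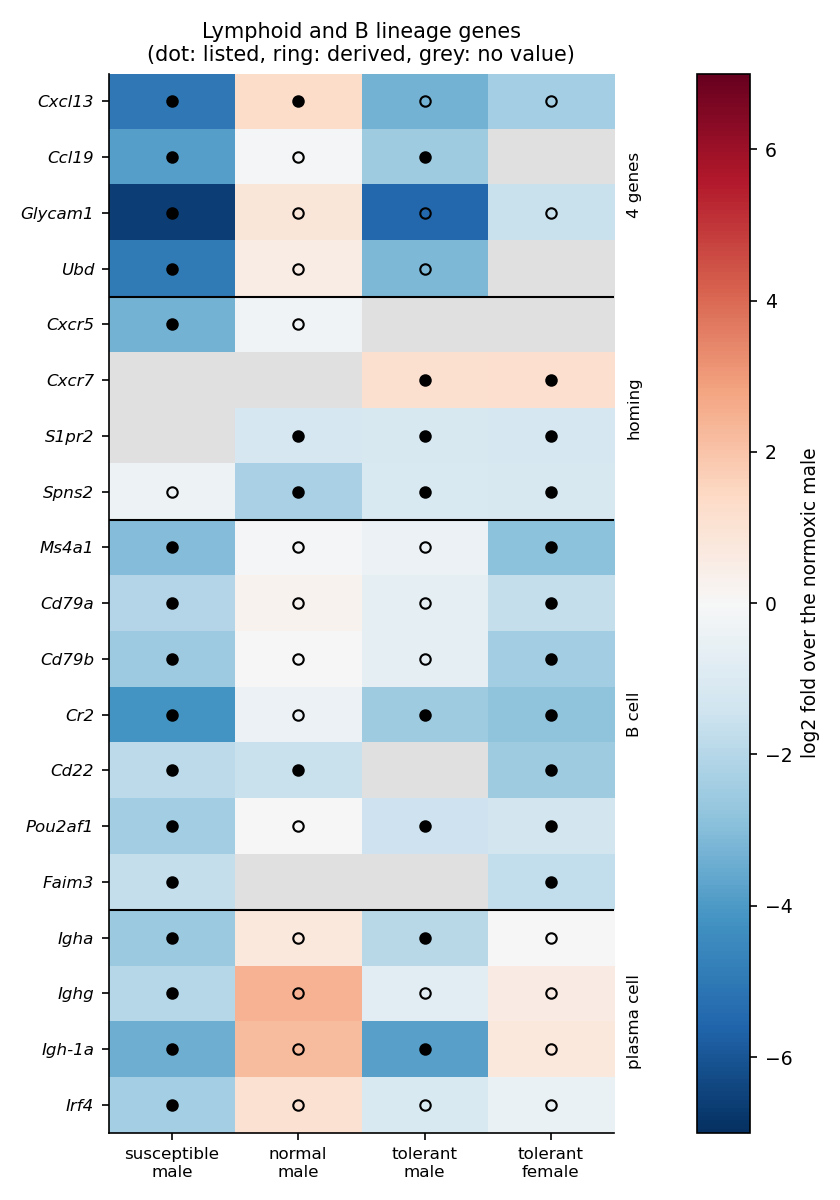
Log2 fold over the normoxic male in the 4 exposed libraries for the 4 genes and for listed homing, B cell and plasma cell genes with a single gene model. Dots are listed values, rings are derived values and grey cells have none. The 4 genes and the B cell and plasma cell genes are blue in the susceptible male, while in the tolerant female Ms4a1 and Cr2 are at -2.88 and -2.82 and Igha is at -0.02.

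Heart muscle genes were lower in each exposed library, with 13 of 22 listed in each of the 4 tables against normoxia. Of all listed genes, 59.9% were lower in the susceptible male, 51.8% in the normal male, 53.1% in the tolerant male and 46.2% in the female. Myl7 had an infinite fold in the tolerant male and is left out of the median there. The median log2 fold of the heart muscle genes was -2.96 in the susceptible and -2.52 in the normal male in the authors' deposited tables. It was -5.88 in the tolerant male and -2.10 in the female in the authors' deposited tables. The lowest library was thus the tolerant male and not the susceptible male, and the normal male was low where the 4 lymphoid genes were near or above normoxia. Of 15 airway and alveolar symbols 2 were listed in the susceptible male against normoxia, both lower: Itln1, a secreted lectin, at 21.2-fold and the airway secretory gene Scgb3a1 at 3.29-fold in the authors' deposited table. Of 12 mesothelial and fat symbols Itln1 was the only one listed there.

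Genes with the most similar values were sought over the tables in which each of the 4 genes had a finite fold, by the root mean square difference of the log2 folds. For Ccl19 the closest of 15 candidates over 4 tables was Cr2, with a difference of 0.23. Cr2 was 18.2-fold lower in the susceptible male and 5.54-fold lower in the tolerant male than in normoxia, 14.0-fold higher in the normal than in the susceptible male and 4.24-fold lower in the tolerant than in the normal male in the authors' deposited tables. Igha followed at 0.74 and Pou2af1, a B cell co-activator, at 1.22, then Dmbt1 at 1.42 and Igh-1a at 2.19. For Ubd the closest of 28 candidates over 3 tables was Cxcl13 at 0.69, followed by Ccl19 and Cr2 at 1.40 each, Itln1 at 1.44 and Igh-1a at 1.64. For Glycam1 the closest of 20 candidates over 4 tables was again Cxcl13 at 1.46, followed by Igh-1a at 1.87, Gp2 at 2.14, Itln1 at 2.55 and Cr2 at 3.03. Gp2, known from the mouse as a marker of the antigen-sampling epithelium over lymphoid follicles, was 16.8-fold lower in the susceptible male than in normoxia and 281-fold lower in the tolerant than in the normal male in the authors' deposited tables. For Cxcl13 only 4 other named genes had values in the same 5 tables. Scgb3a1, at 2.06, had the same direction in all 5, Dmbt1 at 2.98 in 4, and Apold1 at 6.69 and Edn1 at 7.01 in 1 and 0, so the latter pair were unlike it. The tables share libraries, and these differences are descriptions over 3 to 5 tables.

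Of 10 protein-coding neighbours of each gene on GRCr8, 5 on each side, none was listed in any table for Cxcl13 and Glycam1 and 1 each for Ccl19 and Ubd. This was 5% of the 40 neighbours, near the 5.16% of all 23154 protein-coding genes of GRCr8 whose symbol was listed in some table. The listed neighbour of Ccl19 was LOC689481, directly beside it. LOC689481 was 19.9-fold higher in the normal male than in normoxia and 9.41-fold higher than in the susceptible male in the authors' deposited tables. Against the normal male, LOC689481 was 11.2-fold lower in the tolerant male and 7.30-fold lower in the female in the authors' deposited tables. The tables that list both are those of the normal over the susceptible male and of the tolerant over the normal male, and there LOC689481 and Ccl19 had the same direction. These were also the directions of 61% and 63.3% of the genes listed there. In the normal male against normoxia they differed, with LOC689481 19.9-fold higher and Ccl19 a derived 1.08-fold lower. The listed neighbour of Ubd was Gabbr1, a GABA receptor subunit, which was 2.52-fold lower in the normal male than in normoxia and 2.17-fold lower than in the susceptible male in the authors' deposited tables.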

How the data were processed

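Lung RNA was extracted with TriReagent and sequenced, per the labels, on a Genome Analyzer IIx. The authors deposited 11 tables, of which 9 were distinct: 4 against normoxia and 5 between exposed libraries. Per the file headers, each row gives a signed proportional fold change and an FDR-corrected p-value of the authors. Negative folds are minus the inverse ratio, and were read as lower in the library named ahead of the reference. The aligner, the counting, the test and the build were not given in the sources used here, and coordinates are printed as the tables have them. The deposited tables hold no counts, so depth is unknown and no interval is given.

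Folds were turned into log2 values, and a symbol with several rows counted through its largest absolute fold. Each of the 4 genes had 1 row per table. Where a pair of libraries lacked a fold, it was derived by adding listed log2 folds over the shortest chain of libraries, for symbols with 1 gene model. Of 661 listed folds that another chain could also give, 661 matched within 0.001, including 7 of 7 of the 4 genes. On simulated data without noise, chaining returned the exact differences, which holds by construction and checks only the arithmetic. Neither check measures the error of a derived fold. RefSeq tables of GRCr8 served for names, neighbours and upstream sequences, and all 4 genes matched with the same chromosome. No test was run, since each group was 1 library.

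The 4 genes and all gene lists were chosen with earlier results of these data known. Motif letters were chosen after the sequences were seen. Named were the 4 genes, up to 4 of each list with the largest fold per table, and the 5 most similar to each gene. Genes named as not listed were named after their values were seen. So were a few outside this rule (Faim3, Gabbr1, LOC689481, and Spns2 in the tolerant male). Others outside it were Cd79a, Cd79b and Pou2af1 in the tolerant libraries, and Cxcl12 and Spns2 in the normal over the susceptible male. Results for a few genes of the lists are not reported here, and the figures leave those genes out. Python 3.11.15 with pandas 2.3.3 was used. Alternatives were a p of at most 0.01, a fold of at least 4, the row with the smallest p, and other chains.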

Additional observations from a re-analysis of the deposited data

Results flagged for a closer look

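Cxcl13 moved in opposite directions in 2 exposed libraries compared with the same normoxic library. It was 32.0-fold lower in the susceptible male and 2.40-fold higher in the normal male in the authors' deposited tables. The difference between these libraries was not tested over replicates, since each is 1 library. The authors' own comparison of the pair gave 77.0-fold, with an FDR-corrected p of 1.03e-08.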

How the results depend on the processing

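No paired analysis was possible because each group was 1 library, and for the same reason no replicate could be left out. The number of listings of the 4 genes as lower than normoxia was 5 as deposited, 4 at a p of at most 0.01, where Ubd in the susceptible male was lost, and 5 at a fold of at least 4. The higher listing of Cxcl13 in the normal male passes neither limit. The 6 listed values against normoxia were the same with the smallest-p row, and the 3 other chains tried for derived folds gave the same values. Neither outcome could differ, since each of the 4 genes had 1 row per table and the listed folds chain exactly. They are therefore no check of robustness. Over the 9 tables, a fold of at least 4 reduced the listings of homing genes from 28 to 17, venule and adhesion genes from 13 to 4, lymphotoxin genes from 8 to 4, other chemokines from 12 to 5, T cell genes from 9 to 0, dendritic cell genes from 14 to 0, airway genes from 16 to 8 and mesothelial and fat genes from 10 to 5. At a p of at most 0.01, other chemokines fell to 6. Folds derived for Ubd and Glycam1 rest on a single chain each and could not be checked by another. Depth is unknown, so how much counting error each fold carries cannot be given.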
